A study of Mus musculus with 2 samples.

Results

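Alveolar type 2 (AT2) cells of adequate depth were described in a scRNA-Seq experiment on mouse lung, in which each captured RNA molecule carries a unique molecular identifier (UMI). AT2 cells were chosen on measured values. A barcode was taken if it held at least 200 genes, at most 20% mitochondrial UMIs and at least 3000 UMIs, if *Sftpc* made up at least 3% of its UMIs, if *Abca3*, *Lamp3*, *Slc34a2* and *Lpcat1* together had at least 3 UMIs, if the secretoglobins *Scgb1a1*, *Scgb3a1* and *Scgb3a2* made up under 2%, and if *Ptprc* and *Cdh5* together had at most 5 UMIs. This gave 469 cells. Of these, 403 came from the *Cebpa* fl/fl library, out of 8209 cells of at least 3000 UMIs and 11487 cells kept in all. The other 66 came from the *Cebpa* ΔSftpc library, out of 6212 cells of that depth and 13238 kept.

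The *Cebpa* ΔSftpc mice carried 2 floxed *Cebpa* alleles and a tamoxifen-inducible Cre recombinase driven by *Sftpc* (Sftpc-CreERT2), and the *Cebpa* fl/fl controls carried the floxed alleles. To delete *Cebpa*, tamoxifen was given at 75 mg per kg on 5 consecutive days. Animals kept for longer than 3 months were dosed again once a week. Lungs were taken 26 weeks after the first injection. The animals were not of a single inbred strain, and the age given for them is 3 months where the study names no other. The labels refer to a flow sorting procedure for lung, while the methods describe suspensions of whole lungs. Each genotype was 1 library from 3 mice, with no mark of the mouse on a cell. There was therefore no replicate, no test between genotypes was possible, and intervals in the text are 95% intervals for counting error alone. No barcode was shared between the AT2 cells of the 2 libraries, although 45 barcodes were found in both libraries and 3 AT2 cells carried one of these. No UMI of the Y-linked genes *Ddx3y*, *Eif2s3y*, *Kdm5d* and *Uty* was found in AT2 cells of either library, and *Xist* was found in 381 of 403 and 60 of 66.

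AT2 cells are the cuboidal cells of the alveolus that make pulmonary surfactant, store it in lamellar bodies and secrete it onto the air-liquid interface. They also divide and give rise to the flat alveolar type 1 (AT1) cells after injury. *Cebpa* encodes C/EBPα, a basic leucine zipper transcription factor that acts in the maturation of AT2 cells and in lipid metabolism.

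The 2 sets of cells had similar median depth but not the same range of depth. The *Cebpa* fl/fl AT2 cells had a median of 21100 UMIs (range 3119 to 53347) and 4176 genes, and the *Cebpa* ΔSftpc AT2 cells had a median of 18664 UMIs (3009 to 35926) and 3990 genes. They held 8378122 and 1075960 UMIs in all. Depth in the *Cebpa* ΔSftpc library fell into 2 ranges with nothing between 8249 and 13796 UMIs. Of its cells, 26 lay below 10000 UMIs and 40 above, whereas 31 and 372 of the *Cebpa* fl/fl cells did. *Sftpc* took a median of 19.7% of UMIs (6.06 to 32.3) in *Cebpa* fl/fl and 15.9% (3.04 to 30.1) in *Cebpa* ΔSftpc AT2 cells. At the edge of the *Sftpc* criterion, the highest cell left out by it alone had 0.231% in *Cebpa* fl/fl and 2.84% in *Cebpa* ΔSftpc. By depth alone, 18 *Cebpa* fl/fl cells failed, and 193 from *Cebpa* ΔSftpc mice did, so most of the shallow *Cebpa* ΔSftpc cells with this pattern are not described.

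**Figure D1:**
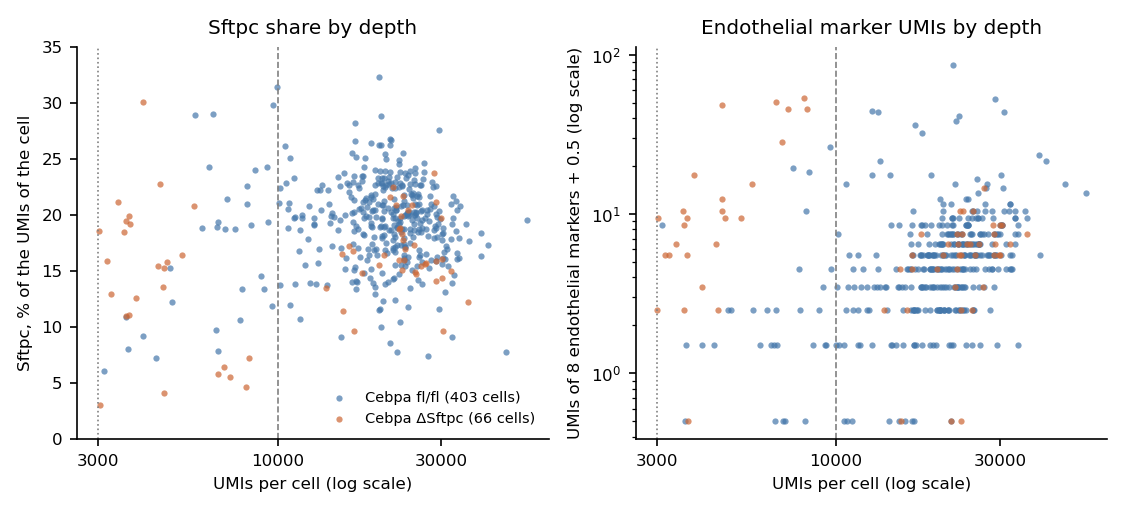
Each point is an AT2 cell, with its UMIs on a log axis against the share of *Sftpc* (left) and against the UMIs of 8 endothelial markers plus 0.5 on a log axis (right), a dotted line at 3000 UMIs and a dashed line at 10000 UMIs. The 26 *Cebpa* ΔSftpc cells left of the dashed line held 413 endothelial marker UMIs and the 40 cells right of it 215.

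Markers of other cell types were counted next, since they bear on each gene below. A list of 10 endothelial markers, led by *Ly6c1*, summed to 445 UMIs per 1000000 UMIs (CPM) in *Cebpa* fl/fl and 731 CPM in *Cebpa* ΔSftpc AT2 cells, with no marker at 0 in either. Within the *Cebpa* ΔSftpc AT2 cells the sum was 3897 CPM under 10000 UMIs and 327 CPM from 10000 UMIs, against 439 CPM in *Cebpa* fl/fl cells from 10000 UMIs. The higher endothelial level was thus carried by the 26 shallower cells, and 6 of these had at least 20 UMIs of the 8 markers. Those 6 cells held 28 to 53 such UMIs each. Their *Sftpc* share was 4.11% to 7.26% of UMIs, nearer the 3% criterion than the median of 15.9% in *Cebpa* ΔSftpc AT2 cells. Hemoglobin and other erythroid genes, led by *Hbb-bs*, went from 24.5 to 343 CPM, and were at 96.4 CPM in the deeper *Cebpa* ΔSftpc cells. The 12 neutrophil markers, most of their UMIs from *S100a9*, went from 2.63 to 147 CPM, with 7 and 4 of them at 0, among them the defining marker *Ly6g* in both. Other cells of the *Cebpa* ΔSftpc library had 5262 CPM of these markers and those of the *Cebpa* fl/fl library 34.5 CPM. Macrophage and monocyte markers, led by *Ly6c2*, went from 53.5 to 158 CPM with 3 and 2 of 12 at 0, and B and T cell markers, led by *Cd79b*, from 29.0 to 83.6 CPM with 4 and 1 of 10 at 0. Fibroblast markers, led by *Gsn*, stood at 1099 and 968 CPM with none at 0, airway secretory markers, led by *Hp*, at 551 and 498 CPM with 1 and 5 of 10 at 0, and multiciliated markers, led by *Tubb4b*, at 489 and 323 CPM with 0 and 1 of 10 at 0. All 8 tested multiciliated genes stood lower in *Cebpa* ΔSftpc AT2 cells, 4 of them at least 2-fold, and the same list had a median log2 ratio (*Cebpa* ΔSftpc over *Cebpa* fl/fl) of −0.94 in AT2, −1.89 in all other and −1.63 in endothelial cells. The cells set beside AT2 cells were also not of one make-up. Endothelial cells were 5982 of the 7806 other cells in *Cebpa* fl/fl and 3359 of 6146 in *Cebpa* ΔSftpc, so a ratio over all other cells mixes cell types in unequal shares. Of AT1 cells there were 45 and 47, and between these the AT1 genes had a median log2 ratio of −2.24, AT2 genes of 2.10 and endothelial markers of 3.02, so the AT1 sets of the 2 libraries were not alike and a ratio in them is not read as a change within AT1 cells. The part these RNAs have in the differences between AT2 cells was not tested, and ratios in cells of at least 10000 UMIs are given beside many of the values.

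**Figure D2:**
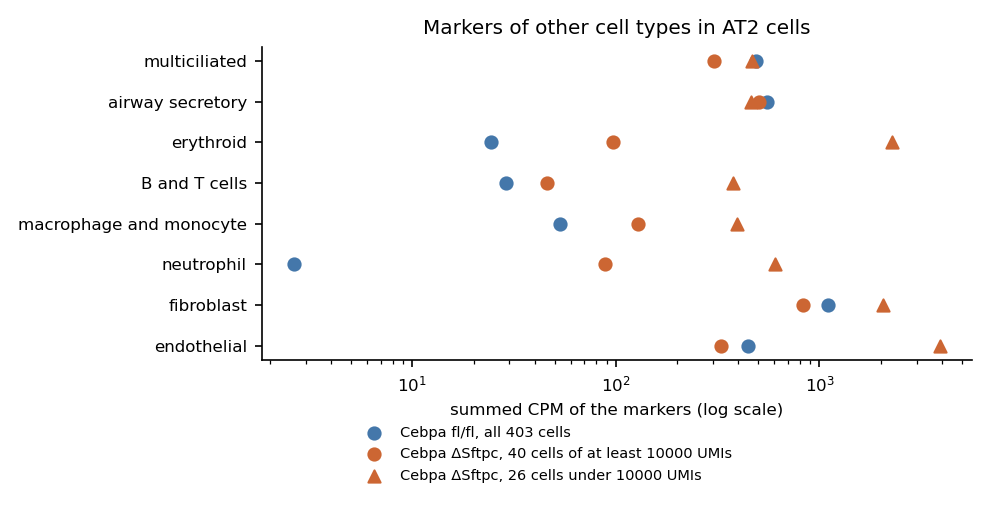
Summed CPM (log axis) of the markers of 8 other cell types in AT2 cells, for all *Cebpa* fl/fl cells and for *Cebpa* ΔSftpc cells above and below 10000 UMIs. Endothelial markers were at 445 CPM in *Cebpa* fl/fl, and at 327 and 3897 CPM in the deeper and shallower *Cebpa* ΔSftpc cells.

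The targeted gene was only slightly lower in the *Cebpa* ΔSftpc AT2 cells. *Cebpa* (ENSMUSG00000034957) had 1316 UMIs in *Cebpa* fl/fl and 139 UMIs in *Cebpa* ΔSftpc AT2 cells. This was 157 CPM (149–166) and 129 CPM (109–153), a log2 ratio of −0.28 (−0.54 to −0.03). A *Cebpa* UMI was found in 89.8% and 72.7% of cells. With each cell thinned to 3000 UMIs, the shares were 35.5% (30.8–40.4) and 25.8% (15.8–38.0), against 3.18% and 3.66% of thinned endothelial cells, whose median depths were 5753 and 6645 UMIs. The gene was thus above the background level of other cells in both libraries, and its UMIs do not tell recombined from unrecombined cells. The deeper cells gave −0.31. Other family members, added after their values were seen, differed by less than counting error, with *Cebpd* at 0.03 (−0.18 to 0.24), *Cebpb* at 0.11 (−0.22 to 0.43) and *Cebpg* at 0.01 (−0.36 to 0.37).

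Genes used to choose the cells are given as a description. *Abca3*, the lipid transporter of the lamellar body, had a log2 ratio of −0.06 (−0.17 to 0.05). The lamellar body protein gene *Lamp3* stood at 0.02, *Lpcat1*, an enzyme of surfactant phospholipid remodelling, at 0.08, and *Slc34a2*, a sodium-phosphate cotransporter, at 0.09. *Slc34a2* was the only one of these genes, of *Sftpc* and *Cebpa*, and of the AT2-enriched genes named below whose RefSeq promoter (GRCm38.p6, 250 bases before to 50 after the gene start, 300 in all) held the letters TTGCNNAA, part of the sequence that C/EBP proteins recognize, on either strand. The match lies 48 to 41 bases before the start and is palindromic, so it counts on both strands. It is shown, as the only match in the promoters searched one by one, within the 30 bases of chr5:53049294-53049323 on the plus strand, with the matching 8 bases in capitals:
Slc34a2: cgccggcctctTTGCGCAAcaccttcgctg
Such a match was found in 10.8% of 32851 promoters, in 8.06% of the 7492 found for genes tested, in 9 of 123 promoters of genes at least 2-fold higher and in 18 of 191 of genes at least 2-fold lower. Promoters were found for 9 of the 12 and 7 of the 12 AT2-enriched genes named as higher and lower, and none held a match, which says only that these letters are not in this window.

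Across all genes, the AT2 cells chosen from the 2 libraries were much alike. They were chosen by the same AT2 markers in both libraries, so this holds only for cells that had these markers. Of 9409 genes with at least 50 UMIs summed over both, 84.4% lay within 1.5-fold, and the median log2 ratio was 0.02. The median distance from 0 was 0.239 for all genes and 0.145 for the 2208 genes with at least 500 UMIs. With sums under 3 raised to 3, 184 genes (1.96%) were at least 2-fold higher and 240 (2.55%) at least 2-fold lower in *Cebpa* ΔSftpc AT2 cells. For 178 and 86 of these the interval lay clear of 0. Of all genes tested, 4929 stood above and 4480 below 0, with 689 intervals above 0 (7.32%) and 483 below (5.13%), beside which the counts of the gene lists are to be read. The lower side rests on small counts, with 226 of the 240 genes under 10 UMIs in the *Cebpa* ΔSftpc cells, which partly follows from being lower. At equal CPM, 220 of the 240 were expected to have under 20 UMIs there. Of the 184 higher genes, 137 had a lower level in AT2 cells than in the other cells of the *Cebpa* ΔSftpc library, as had 71.3% of all genes tested, and 16 were enriched in AT2 cells, with a level at least 2 times that of other cells, as were 12.7% of all genes. Of the 240 lower genes, 189 were below other cells in *Cebpa* fl/fl (74.3% of all genes) and 20 were enriched in AT2 cells (11.2%). In cells of at least 10000 UMIs there were 113 higher and 307 lower genes, of which 84 and 175 were among those above. With each cell given the same weight there were 498 and 411.

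**Figure D3:**
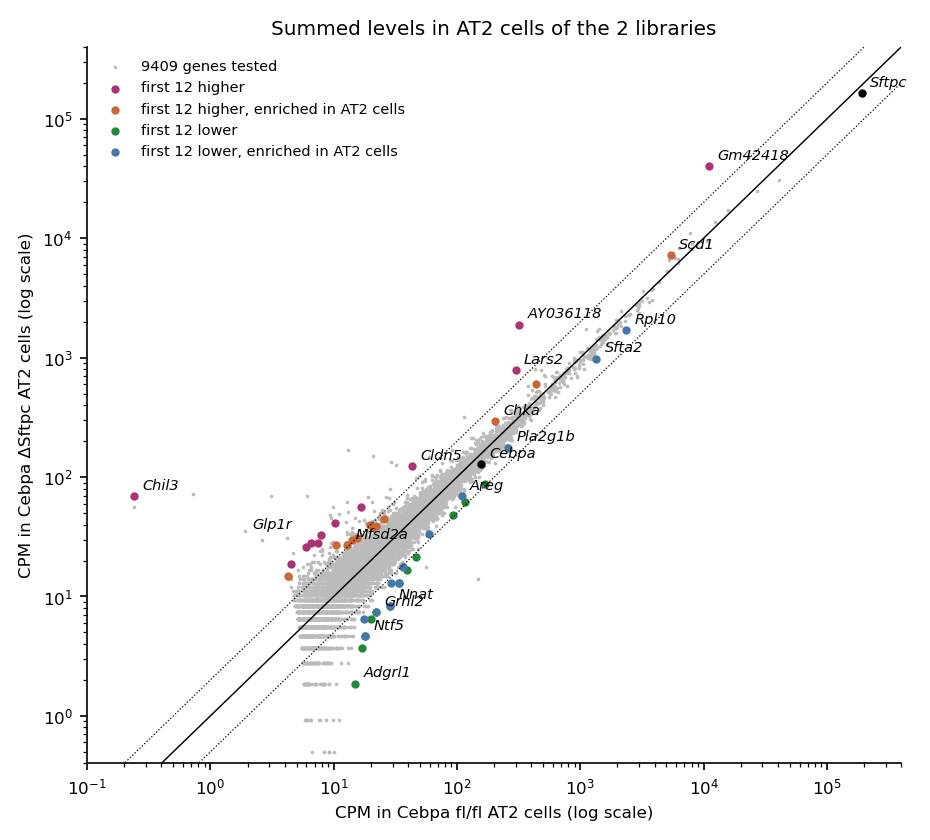
CPM of 9409 genes in AT2 cells of the *Cebpa* fl/fl (x) and *Cebpa* ΔSftpc (y) library on log axes, with equality (solid line), 2-fold (dotted lines), *Cebpa* and *Sftpc* (black) and the named genes in color. A level of 0 is drawn at 0.5 CPM, and 84.4% of genes lay within 1.5-fold.

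Genes lower in *Cebpa* ΔSftpc AT2 cells and enriched in AT2 cells included secreted proteins, regulators of vesicle traffic and an epithelial transcription factor. The first 12 were ordered by the bound of the interval nearest 0. In *Cebpa* fl/fl they were at least 2 times as high in AT2 cells as elsewhere, and all but *Rpl10* and *Rab11fip1* were so in the *Cebpa* ΔSftpc library too. *Nnat* (neuronatin, chr2:157560078-157562522, plus strand, inside the span of *Blcap* on the other strand) encodes a small membrane protein. It had 241 UMIs in 96 *Cebpa* fl/fl cells and 9 UMIs in 7 *Cebpa* ΔSftpc cells. Its log2 ratio was −1.78 (−2.93 to −0.83), and −1.60 in the deeper cells. *Ntf5* (chr7:45413695-45417179, plus strand), the gene of the neurotrophin NT-4, had 151 UMIs and 5 UMIs, a log2 ratio of −1.96 (−3.60 to −0.70). Thinned cells had 23 and 2 UMIs of *Ntf5* and gave −0.33, with the 2 raised to 3. In all other cells *Ntf5* stood at −2.05 and *Nnat* at −1.83, at levels of 1.89 and 6.64 CPM in *Cebpa* fl/fl. In endothelial cells alone *Ntf5* stood at −2.01 (−3.99 to −0.47) on 25 and 4 UMIs, and *Nnat* at 0.32 (−0.38 to 1.02).

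*Grhl2* (chr15:37233036-37363569, plus strand), a grainyhead-like transcription factor of epithelial cells, had 183 UMIs in 135 *Cebpa* fl/fl cells and 8 UMIs in 8 *Cebpa* ΔSftpc cells. Its level was 21.8 and 7.44 CPM, a log2 ratio of −1.55 (−2.79 to −0.55). In thinned cells the ratio was −0.39, on 24 and 2 UMIs, the latter raised to 3. It was the only one of 20 tested C/EBP family and lung epithelial transcription factors to be 2-fold apart, and it was at −1.12 in all other cells and −0.34 (−1.06 to 0.36) in endothelial cells. *Rab38* (148 and 7 UMIs, −1.44, −2.78 to −0.36), a GTPase of lysosome-related organelles such as lamellar bodies, and *Rab11fip1* (306 and 19 UMIs, −1.05, −1.80 to −0.38), an effector of endosome recycling, were also lower. Thinned cells gave −0.20 for *Rab38*, on 21 and 2 UMIs with the 2 raised to 3. In AT2 cells with no *Ptprc* or *Cdh5* UMI and under 0.5% secretoglobins, *Rab11fip1* stood at −0.58. *Tmem37*, which encodes a membrane protein related to calcium channel subunits, had 286 and 14 UMIs, a log2 ratio of −1.39 (−2.28 to −0.62). *Tmem37* and *Rab11fip1* were enriched against all other cells pooled, but AT1 cells had far more of both. In *Cebpa* fl/fl *Tmem37* was at 34.1 CPM in AT2 and 630 CPM in AT1 cells, and *Rab11fip1* at 36.5 and 441 CPM. The AT1 set of the other library had 87.6 CPM of *Tmem37* and 204 CPM of *Rab11fip1*. In each of these genes the *Cebpa* ΔSftpc value rests on fewer than 20 UMIs.

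The better counted members of this group differed less. *Sfta2* (chr17:35601549-35650571, plus strand), a small secreted protein of the surfactant-associated kind, had 11275 and 1056 UMIs. This was 1346 and 981 CPM, a log2 ratio of −0.46 (−0.55 to −0.36). Over single cells its median was 1336 CPM (0 to 4362) and 996 CPM (0 to 1960), so the cells overlapped over most of their range. *Pla2g1b* (chr5:115466262-115474722, plus strand), a secreted phospholipase A2, had 2190 and 190 UMIs, or 261 and 177 CPM, a log2 ratio of −0.57 (−0.79 to −0.35). After thinning, a *Pla2g1b* UMI was found in 53.3% and 31.8% of AT2 cells, against 0.585% and 0.149% of endothelial cells. Both genes were also lower in endothelial cells of the *Cebpa* ΔSftpc library (−1.19 and −2.68), where their levels are low. In the AT1 sets, where AT2 genes as a list had a median of 2.10, *Sfta2* was at 33.1 and 781 CPM and *Pla2g1b* at 0 and 152 CPM.

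*Areg*, the gene of the EGF receptor ligand amphiregulin, had 912 and 74 UMIs, a log2 ratio of −0.66 (−1.02 to −0.32). It was found in 138 of 403 and 16 of 66 cells. In the AT1 sets, which were not alike, its level was 44.1 and 625 CPM. *Nme7*, a nucleoside diphosphate kinase homolog, stood at −0.83 (−1.37 to −0.35), and *Rpl10*, a protein of the large ribosomal subunit, at −0.46 (−0.53 to −0.39) with 19605 and 1834 UMIs. The predicted gene *Gm6213* stood at −1.17 (−2.06 to −0.39). Reads of *Rpl10* may be shared with processed copies elsewhere in the genome, so its level is uncertain.

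The 12 AT2-enriched genes named on the higher side were at least 2 times as high in AT2 cells as in other cells of the *Cebpa* ΔSftpc library, the library in which they are high. In the *Cebpa* fl/fl library *Rpl36a-ps1*, *Zcchc4*, *Tbc1d24*, *Fbf1*, *Fam20b* and *Bpnt1* were not, so these met the criterion only through the library where they are high. Of the others, *Scd1*, *Chka* and *Mfsd2a* act on lipids. *Scd1* (chr19:44394455-44407879, minus strand), the stearoyl-CoA desaturase that makes monounsaturated fatty acids, had 45611 and 7776 UMIs, in every AT2 cell of both libraries. Its level was 5444 and 7227 CPM, a log2 ratio of 0.41 (0.37 to 0.44). Single cells ranged from 162 to 29977 CPM around a median of 3501 in *Cebpa* fl/fl, and from 643 to 40099 CPM around a median of 4509 in *Cebpa* ΔSftpc, so the spread among cells was far wider than the shift between libraries. *Chka*, choline kinase, which starts the synthesis of phosphatidylcholine from choline, had 1712 and 317 UMIs, a log2 ratio of 0.53 (0.35 to 0.70), and 0.68 in the deeper cells. With each cell given the same weight the ratio was 0.15 and with thinned cells 0.10, and a *Chka* UMI was found in 89.6% and 69.7% of cells. *Mfsd2a* (chr4:122946850-122961188, minus strand), a carrier of lysophosphatidylcholine, had 107 UMIs in 47 cells and 29 UMIs in 14 cells, a log2 ratio of 1.08 (0.43 to 1.68). The share of cells with an *Mfsd2a* UMI after thinning was 2.23% and 4.55%, against 0.0334% and 0% of endothelial cells, so the difference rests on few cells.

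*Tgoln1*, a protein of the trans-Golgi network, had 3677 and 645 UMIs, a log2 ratio of 0.45 (0.33 to 0.57). *Heatr1*, a factor of ribosome biogenesis, stood at 0.87, but 0.01 in cells with no *Ptprc* or *Cdh5* UMI and under 0.5% secretoglobins, *Fam20b*, a kinase of glycosaminoglycan synthesis, at 0.80, and *Bpnt1*, a nucleotidase, at 0.83, but −0.02 in thinned cells. *Tbc1d24* at 1.08 (0.87 in the deeper cells), *Fbf1* at 0.98 and *Zcchc4* at 1.38 had between 29 and 33 UMIs in *Cebpa* ΔSftpc AT2 cells. *Zcchc4* stood at 0.39 in thinned cells, on 14 and 2 UMIs with the 2 raised to 3. *Gm44751* stood at 1.02 and *Rpl36a-ps1*, a pseudogene whose reads cannot be told apart with certainty from its parent gene, at 1.79.

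Among genes of fatty acid and sterol synthesis as a list, 24 of the 30 tested had a log2 ratio above 0 and 6 below, 8 with an interval above 0 (7.32% of all genes) and 0 with one below. None was 2-fold apart. The median was 0.10, beside 0.02 for all genes, and the summed level went from 10771 to 13088 CPM. In deeper cells the median was 0.15. Without the highest cell of each library for each gene, it was −0.02, beside −0.12 for all genes. *Scd1* held 5444 and 7227 CPM of the sums. *Elovl1*, a fatty acid elongase, stood at 0.03 and *Scd2* at 0.16 (0.06 to 0.26). *Fasn*, fatty acid synthase, was at 588 and 701 CPM, a log2 ratio of 0.25 (0.14 to 0.36). Of members picked after their values were seen, *Gpam*, which starts glycerolipid synthesis, stood at 0.54 (0.30 to 0.77) and *Acly*, which supplies acetyl-CoA, at 0.20 (0.04 to 0.37).

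**Figure D4:**
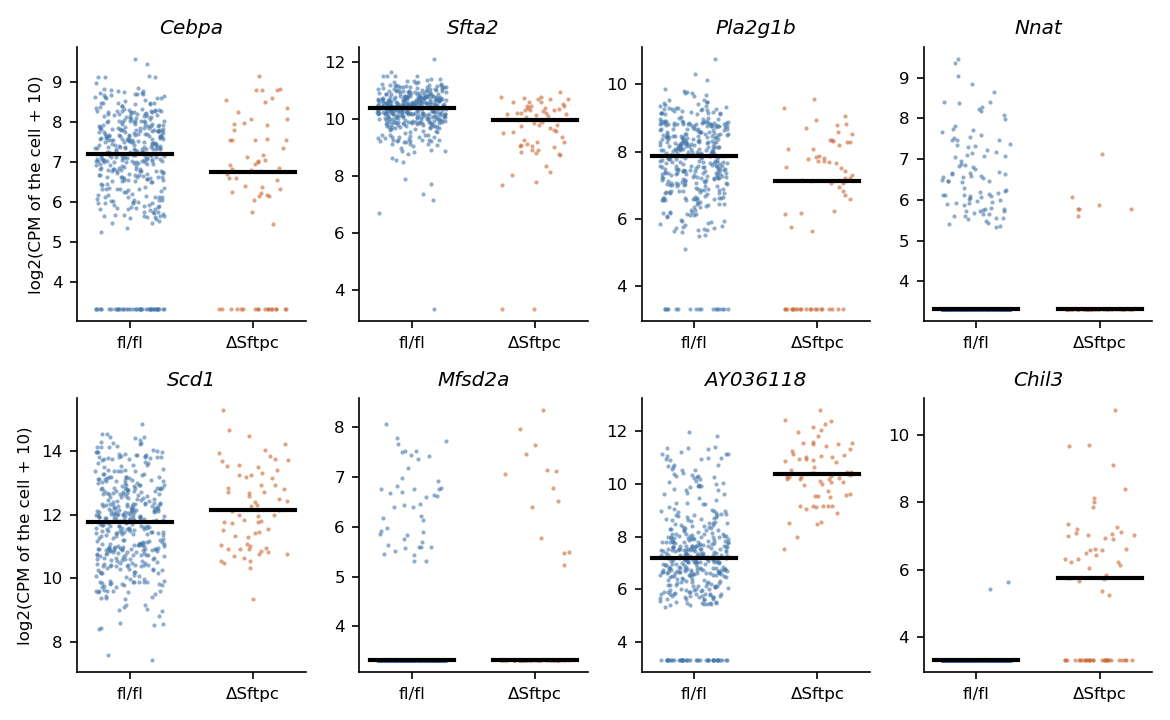
Level of 8 genes in each AT2 cell, as log2 of the CPM of the cell plus 10, with the median of each library as a black line. The cells of the 2 libraries overlapped for all 8 genes, and the medians lay farthest apart for *AY036118* and *Chil3*, with 135 and 1309 CPM for the former and 0 and 44.1 CPM for the latter.

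In these cells, chosen by AT2 markers, AT2 genes outside the surfactant proteins and the choice of cells showed no common direction. Of 39 tested, 18 stood above and 21 below 0, with a median of −0.04 in all cells and 0.00 in the deeper cells. Single genes differed by more than counting error, with 12 intervals above 0 (7.32% of all genes) and 13 below (5.13% of all genes). *Lyz2*, lysozyme 2, was at 15820 and 17417 CPM, a log2 ratio of 0.14 (0.12 to 0.16), and *Cxcl15*, the chemokine lungkine, at 0.00 (−0.03 to 0.04). *Npc2*, a cholesterol carrier of lysosomes, stood at −0.05 and *Cbr2*, a carbonyl reductase of lung, at −0.34 (−0.39 to −0.28). Outside the list's most abundant members, and picked after their values were seen, the junction genes *Cldn18* (−0.30, −0.40 to −0.19) and *Cldn3* (−0.31, −0.46 to −0.16) were lower while *Cdh1* (0.37, 0.18 to 0.56) was higher. *Lyz1*, lysozyme 1, had 176 and 161 UMIs (2.83). However, 1 *Cebpa* ΔSftpc cell held 154 of the 161 UMIs and without the highest cell of each library the ratio was −0.95.

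Transcription factors of the lung epithelium were close to 0, with a median of 0.04 over 20 tested genes. *Nkx2-1*, the master factor of lung epithelium, was at 373 and 391 CPM (0.07, −0.08 to 0.22), *Etv5*, a factor downstream of FGF signaling, at 439 and 479 CPM (0.13, −0.01 to 0.26), and *Irx1* at 0.06. *Id2*, an inhibitor of basic helix-loop-helix factors, stood at −0.12 (−0.29 to 0.04). The interval of *Foxp1*, a forkhead repressor, lay above 0 at 0.38 (0.21 to 0.55). *Sox2*, an airway factor, had 12 and 0 UMIs.

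The genes highest by the counting bound were mostly not AT2 genes. *AY036118* (chr17:39847113-39848035, minus strand) and *Gm42418* (chr17:39846958-39848788, plus strand) are noncoding loci that overlap each other in a stretch that matches ribosomal RNA. *AY036118* had 2678 and 2031 UMIs, or 320 and 1888 CPM, a log2 ratio of 2.56 (2.48 to 2.65), and *Gm42418* had 11111 and 40136 CPM, 1.85 (1.84 to 1.87). In endothelial cells the 2 genes stood at 1.85 and 0.97. *Lars2* (chr9:123366927-123462666, plus strand), the mitochondrial leucyl-tRNA synthetase, was at 299 and 783 CPM, 1.39 (1.27 to 1.50), beside 0.89 in endothelial cells. These ratios were as large in the deeper AT2 cells (2.59, 1.95 and 1.50). They were smaller with thinned cells (2.44, 1.57 and 0.83) and with the same weight for each cell (2.49, 1.56 and 0.997), where *Lars2* was no longer 2-fold higher. The shift in other cells of the same libraries went the same way. Of 12 genes listed as nuclear or rRNA-overlapping RNAs, *Lars2* among them, 8 stood above 0 and 4 were at least 2-fold higher. *Malat1*, a nuclear noncoding RNA, was lower in AT2 (−0.41) and in endothelial cells (−0.47). *Neat1*, another nuclear RNA, was higher at 0.62 (0.50 to 0.75), and *Gm26917*, a further noncoding locus of the list, was at 31.0 and 62.3 CPM.

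*Chil3* (chr3:106147554-106167564, minus strand), a chitinase-like protein of alveolar macrophages, had 2 UMIs in *Cebpa* fl/fl and 74 UMIs in 38 *Cebpa* ΔSftpc AT2 cells, a log2 ratio of 7.59 (5.98 to 9.90) with the lower count raised to 3. After thinning, a *Chil3* UMI was found in none of the *Cebpa* fl/fl AT2 cells, with an exact upper limit of 0.911%, and in 18.2% of the *Cebpa* ΔSftpc AT2 cells. The share in thinned endothelial cells, which should lack the gene, was 0.0836% and 20.8%, so the *Chil3* share of *Cebpa* ΔSftpc AT2 cells was at the background of its library. Other cells of that library had 1120 CPM.

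Of the other genes in this order, *Cldn5* (a tight junction protein of endothelium), *Scn7a* (a sodium channel), *Pitpnc1* (a phosphatidylinositol transfer protein), *Glp1r* (the GLP-1 receptor) and *Ets1* (an ETS transcription factor) had higher levels in endothelial than in AT2 cells of both libraries. *Cldn5* went from 43.0 to 123 CPM, 1.51 (1.21 to 1.81), but the deeper cells gave 0.39. *Glp1r*, with 55 and 30 UMIs and at 2.09 in all cells, was at −1.02 in the deeper cells. *Pitpnc1* went from 2.05 to 0.12, *Scn7a* from 1.74 to 0.75 and *Ets1* from 1.89 to 0.54 in the same way. *Srgn* (serglycin, a granule proteoglycan) stood at 1.99 in all and 1.13 in deeper cells. *Stk17b*, a kinase, with 50 and 28 UMIs, and *Tnfaip3*, the ubiquitin-editing inhibitor of NF-κB signaling, with 38 and 20 UMIs, stayed 2-fold higher in the deeper cells (1.84 and 1.76), and were at 3.61 and 2.23 in all other cells and at 1.71 and 1.11 in endothelial cells. Free RNA was estimated at 2.95% of the UMIs of *Cebpa* fl/fl and 6.73% of those of *Cebpa* ΔSftpc AT2 cells. With free RNA subtracted, *Stk17b* fell to 1.09 and *Tnfaip3* stood at 1.76. After thinning, *Tnfaip3* was found in 9.09% of AT2 and 8.66% of endothelial cells of the *Cebpa* ΔSftpc library, and *Stk17b* in 10.6% and 5.18%.

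On the lower side, genes that are not enriched in AT2 cells included *Adgrl1*, an adhesion receptor of the latrophilin family, with 125 UMIs in 96 cells and 2 UMIs in 2 cells. Its log2 ratio was −2.42 (−4.72 to −0.84) with the count raised to 3. *Atf3*, a stress-induced transcription factor, had 773 and 52 UMIs (−0.93, −1.37 to −0.53), with a ratio of 0.42 in endothelial cells. *Igfbp6*, a binding protein of insulin-like growth factors, had 117 and 62.3 CPM (−0.91, −1.29 to −0.55) and was at −1.59 in endothelial cells. *Smim8* at −1.62, *Phpt1*, a phosphohistidine phosphatase, at −1.23, *Rnaset2a*, a lysosomal ribonuclease with a near-identical neighbor, at −1.13 and *Gm11808* at −0.94 were also lower. In thinned cells *Rnaset2a* stood at −0.69 and *Smim8* at −0.45, the latter gene on 25 and 1 UMIs with the 1 raised to 3. Several named genes overlap another gene on the same strand, which makes their counts uncertain. These are *Phpt1* (*Mamdc4*), *Rnaset2a* (*Gm49673*), *Rab11fip1* (*Gm45266*), *Nme7* (*Gm37411*), *Tbc1d24* (*Ntn3*), *Fbf1* (*Gm26413*), *Rpl10* (*Snora70*) and *AY036118* (*CT010467.1*).

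For several genes of the lists, 1 cell held a large share of the UMIs. *Dcn*, a collagen-binding proteoglycan of fibroblasts, had 1241 and 15 UMIs, a log2 ratio of −3.41 (−4.25 to −2.68), with 261 of the 1241 UMIs in 1 cell and a ratio of −3.28 without the highest cell. Other cells had a ratio of −1.40 and endothelial cells of −1.62. *Retnla*, a secreted resistin-like protein, had 468 and 19 UMIs (−1.66), but 381 of the 468 lay in 1 *Cebpa* fl/fl cell and without the highest cell the ratio was 0.42. *Lrg1*, an acute-phase glycoprotein, had 950 and 345 UMIs (1.50, 1.32 to 1.68), of which 178 lay in 1 *Cebpa* ΔSftpc cell, and 0.53 remained without the highest cell. *Lcn2*, the iron-siderophore binder lipocalin 2, stood at 0.72 (0.61 to 0.83) and at 0.24 without it. *G0s2*, an inhibitor of lipolysis, stood at 1.60 with 13 of its 26 *Cebpa* ΔSftpc UMIs in 1 cell. *Fn1* (fibronectin) at 2.32, *Sod3* (extracellular superoxide dismutase) at 1.11 and *Inmt*, a methyltransferase, at 1.07 had 36.0%, 57.1% and 65.7% of their *Cebpa* ΔSftpc UMIs in 1 cell. *Calca*, the gene of CGRP, had 2 UMIs and 0 UMIs in these AT2 cells, so no ratio is given.

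Genes of antigen presentation, stress and injury differed little. In the MHC class II list, 3 of 7 stood above and 4 below 0, all 4 of the latter with an interval below 0 (5.13% of all genes). *Cd74*, the invariant chain, was at 3592 and 2925 CPM, a log2 ratio of −0.30 (−0.35 to −0.24), *H2-Aa* at −0.15 (−0.25 to −0.05), *H2-Eb1* at −0.22 and *H2-Ab1* at 0.01. The list's median was −0.15 in AT2 cells, 0.60 in endothelial cells and 1.58 in all other cells. Of 24 MHC class I and interferon response genes, 19 stood above 0 with a median of 0.13, but the median was −0.16 in the deeper cells. *H2-K1* was at 0.07, *Ly6e* at 0.02 and *H2-D1* at −0.21 (−0.34 to −0.08). *Isg15* and *Gbp7* were at least 2-fold higher (both 1.38) on 16 and 15 UMIs, and at 0.68 and 0.84 in deeper cells.

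Transitional keratin and injury genes had a median of −0.21 over 20 tested genes, with 13 below 0, 7 of them with an interval below 0 (5.13% of all genes). In the deeper cells the median was −0.31. *Krt8*, a keratin that marks transitional alveolar cells, was at 186 and 164 CPM (−0.18, −0.41 to 0.04) and its partner *Krt18* at 226 and 173 CPM (−0.38, −0.61 to −0.17). *Anxa2* stood at −0.25 (−0.44 to −0.06) and *S100a11* at −0.02. AT1 genes had a median of −0.14 over 17, and −0.39 in deeper cells. *Ager*, the main AT1 marker, was at 777 and 584 CPM (−0.41, −0.53 to −0.29), *Aqp5* at −0.14 and *Emp2* at 0.00. *Igfbp2* (109 UMIs, 49 of them in 1 cell, and 3 UMIs, −2.22, −4.52 to −0.64) and *Spock2* (49 and 2 UMIs, −1.07, −3.40 to 0.56, the lower count raised to 3) were 2-fold lower. *Hopx*, picked after its values were seen, was at 0.15 in all and −1.31 in the deeper cells.

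Immediate-early and heat shock genes had 18 of 23 above 0 and a median of 0.22, 10 with an interval above 0 (7.32% of all genes). *Jun* was at 636 and 757 CPM (0.25, 0.14 to 0.36), *Fos* at 0.19 (0.05 to 0.32), *Hspa8* at 0.02 and *Jund* at 0.03. *Nr4a1*, an orphan nuclear receptor, was 2-fold higher at 49.5 and 101 CPM (1.03, 0.71 to 1.34). The list's median was 0.13 in the deeper AT2 cells, 0.22 in all other cells and 0.16 in endothelial cells. Of p53 and cell cycle arrest genes, 14 of 16 stood above 0, with a median of 0.21, but 0.11 in the deeper cells, and 2 intervals above 0 (7.32% of all genes). *Cdkn1a* stood at 0.15 (−0.19 to 0.47), *Btg2* at 0.04 and *Aen* at 1.03 (−0.08 to 2.01) on 42 and 11 UMIs. ER chaperone and unfolded protein genes were balanced, 11 above and 12 below, with a median of 0.00, *Hsp90b1* at 0.00 and *Hspa5* at −0.16 (−0.31 to −0.01). Proliferation genes were mostly too low to test, with 7 of 19 tested and a median of 0.02.

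**Figure D5:**
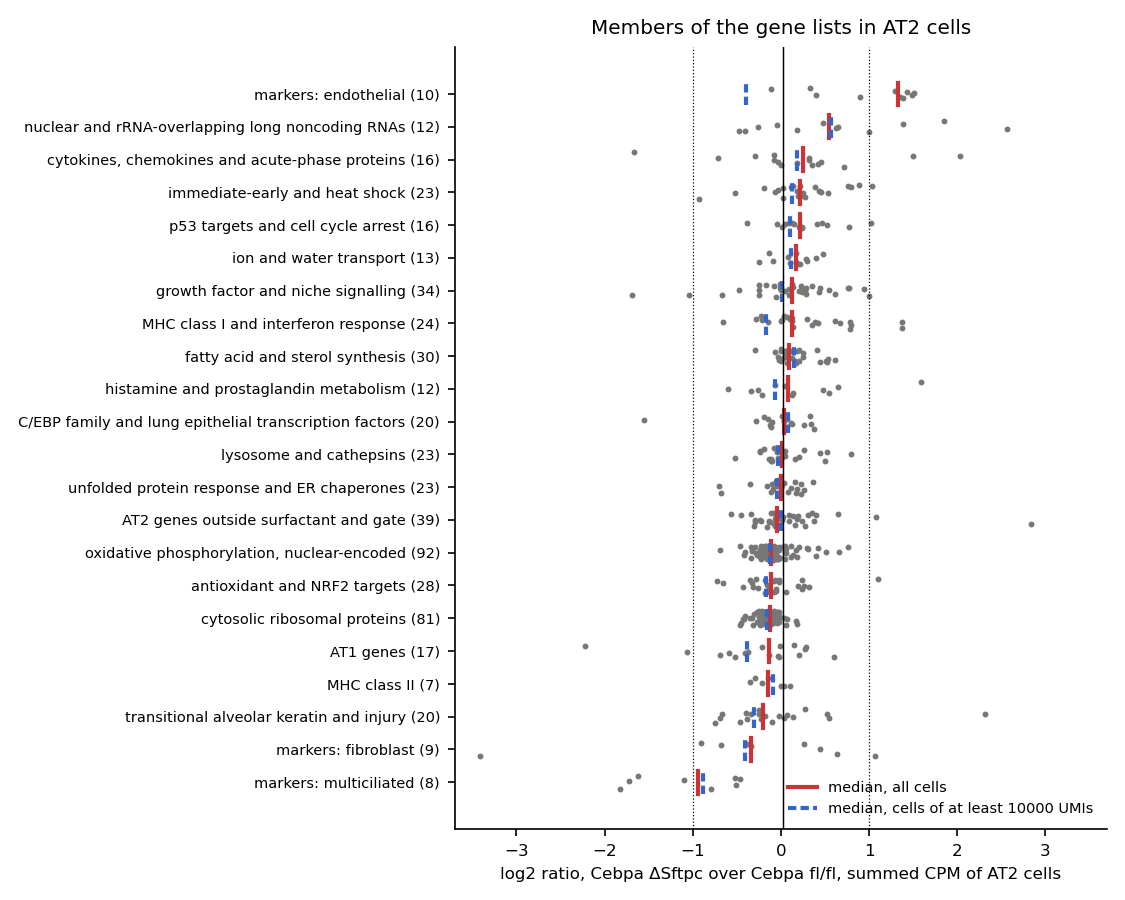
Log2 ratio of each tested member of the lists with at least 7 tested members (proliferation left out) in AT2 cells, where short lines are the list medians in all cells (red) and in cells of at least 10000 UMIs (blue, broken), the solid vertical line is the median of all 9409 genes (0.02), and dotted lines are 2-fold. The endothelial median moved from 1.33 to −0.40 between the 2 choices of cells, and that of the rRNA-overlapping list from 0.55 to 0.57.

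Of 81 cytosolic ribosomal protein genes, 76 stood below 0, 61 of them with an interval below 0 (5.13% of all genes). The median was −0.13, and their sum went from 115190 to 103820 CPM. *Rps19* stood at −0.08 (−0.13 to −0.02), *Rpl41* at −0.14 and *Rpl21* at −0.33 (−0.39 to −0.27). The median of the same genes was 0.41 in all other cells and 0.09 in endothelial cells. Of 92 nuclear-encoded oxidative phosphorylation genes, 72 stood below 0. An interval lay below 0 for 17 (5.13% of all genes) and above 0 for 3 (7.32% of all genes). The median of the 92 genes was −0.11, beside −0.17 in other and −0.13 in endothelial cells, and *Cox8a* at −0.20 (−0.32 to −0.08) was the most abundant. Antioxidant genes had 21 of 28 below 0, 7 of them with an interval below 0, and 4 of the 28 with one above. Their median was −0.11 (range −0.72 to 1.11), with *Fth1*, ferritin heavy chain, at −0.02 and *Gpx4* at −0.28 (−0.40 to −0.16). Lysosome genes had a median of 0.01 over 23, with *Cd63* at −0.12 and *Lamp1* at 0.01.

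Growth factor and niche signaling genes had 21 of 34 above 0 and a median of 0.13, but 0.01 in deeper cells. *Fgfr2*, the receptor of the niche ligands of the FGF family, was at 264 and 311 CPM (0.24, 0.07 to 0.40), *Ctnnb1* (β-catenin) at 0.24 (0.11 to 0.37) and *Spry1*, a feedback inhibitor of FGF signaling, at −0.48 (−0.78 to −0.19). *Egfr* (75 and 3 UMIs, −1.68, −3.99 to −0.08) and *Ccn2* (80 and 5 UMIs, −1.04, −2.70 to 0.24) were 2-fold lower on few UMIs. Ion and water transport genes had 10 of 13 above 0 and a median of 0.17, with *Atp1b1*, a subunit of the sodium pump, at 0.17 and *Slc12a2*, a chloride cotransporter, at −0.25 (−0.41 to −0.09). Cytokine, chemokine and acute-phase genes had 16 of 37 tested and a median of 0.25 (0.19 in the deeper cells), 6 with an interval above 0 (7.32% of all genes) and 1 with one below. Their sum went from 2058 to 2700 CPM, with *Il33* at 0.35 (0.15 to 0.54) but 0.10 without the highest cell, *Hp* (haptoglobin) at −0.08 and *Icam1* at 0.18. Of histamine and prostaglandin genes, 7 of 12 stood above 0 with a median of 0.09, but −0.07 in the deeper cells. *Hpgd*, which degrades prostaglandins, was picked after its values were seen. It was at 0.64 (0.25 to 1.02) in all AT2 cells and −1.89 in the deeper ones, and its level in all other cells was 2427 and 1225 CPM. Of the 15 neuroendocrine peptide genes, only *Nnat* was tested.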

How the data were processed

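Whole lung cells were profiled with droplet-based 3′ scRNA-Seq. The authors aligned reads to mm10 with Cell Ranger, version 6.1.1 in the submitters' processing notes and 5.0.0 in the file headers, and deposited raw UMI counts per gene and barcode, without normalization, in 1 library per genotype. Counts were read with scipy 1.17.1 and pandas 2.3.3 in Python 3.11.15. They were summed over AT2 cells, divided by all UMIs of these cells (CPM) and compared as log2 ratios with exact binomial or Poisson 95% intervals, sums under 3 raised to 3, for genes with at least 50 UMIs. The same was done in endothelial cells (*Cdh5* at least 2 UMIs, no *Ptprc*, *Sftpc* under 3%), AT1 cells (*Ager*, *Rtkn2* and *Akap5* together at least 5 UMIs, *Sftpc* under 3%, secretoglobins under 2%, *Ptprc* and *Cdh5* at most 5 UMIs) and all other cells of at least 3000 UMIs. No doublet caller was run, so doublets were kept. Ratio and interval code was tested on simulated counts. Positions are from GENCODE release M21 (GRCm38) and promoters from RefSeq.

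Named genes were the first 12 in each direction by the interval bound nearest 0, over all genes and over AT2-enriched genes, found in at least 10 cells of the higher library with at most 20% of its UMIs in 1 cell. Genes of the cell choice, surfactant proteins, *S100a8*, *S100a9* and mitochondrial genes were left out. Of each list, the most abundant members and those 2-fold apart were named. A few genes that meet these rules are not reported here. *Sox2*, *Foxp1*, *Krt8*, *Fos*, *Neat1* and *Calca* were added after their values were seen. The members and lists were chosen with earlier results of these data known. The alternatives with cells of at least 10000 UMIs and without the highest cell were chosen after seeing the data.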

Additional observations from a re-analysis of the deposited data

Results flagged for a closer look

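*Rab11fip1*, an effector of endosome recycling, stood out because the difference between libraries went opposite ways, each beyond 2-fold, in 2 kinds of cell. Its log2 ratio was −1.05 (−1.80 to −0.38) in AT2 cells, on 306 and 19 UMIs, and 1.08 in endothelial cells, on 91 and 124 UMIs and at levels of 2.34 and 4.95 CPM. In all cells other than AT2 cells, a mixture of types in unequal shares, it was 1.97. In AT1 cells it was at 441 and 204 CPM, against 36.5 CPM in *Cebpa* fl/fl AT2 cells, but the AT1 sets of the 2 libraries were not alike, with a median log2 ratio of −2.24 for AT1 genes and 2.10 for AT2 genes. The AT2 value was −0.58 with the stricter choice of cells, and the gene overlaps *Gm45266* on the same strand, so its count is uncertain. The difference between the kinds of cell was not tested, since each genotype was 1 library.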

How the results depend on the processing

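No paired analysis was possible because each genotype was 1 library. Genes at least 2-fold higher numbered 498 with each cell given the same weight, 79 with cells thinned to 3000 UMIs, 108 in cells with no *Ptprc* or *Cdh5* UMI and under 0.5% secretoglobins, 114 with free RNA subtracted, 690 with no minimum of UMIs for a gene, 113 in cells of at least 10000 UMIs and 81 without the highest cell for each gene, against 184, of which they shared 160, 19, 34, 90, 184, 84 and 81. Without the minimum for a gene, 17381 genes were tested in the same cells. Genes at least 2-fold lower numbered 411 with the same weight, 99 with thinned cells, 276 with the stricter choice by *Ptprc*, *Cdh5* and secretoglobins, 339 with free RNA subtracted and 456 without the highest cell, against 240, of which they shared 152, 2, 62, 193 and 202. Thinning left 3344 genes to test, and leaving out the highest cell, 1 of 66 against 1 of 403, moved the median log2 ratio of all genes from 0.02 to −0.12. Scaling by the median of ratios or without surfactant genes gave 176 or 157 higher and 246 or 266 lower genes. The *Cebpa* ratio stayed between −0.25 and −0.37 under all 9 alternatives. AT2 cells were 4.91% of *Cebpa* fl/fl cells of at least 3000 UMIs, but 7.18% from 5000 UMIs, 23.9% from 10000 UMIs and 3.02% with the stricter choice. They were 1.06% of *Cebpa* ΔSftpc cells, but 0.547% with the stricter choice, 1.38% with *Sftpc* from 1% and 2.47% from 10000 UMIs. *Glp1r* reversed to −0.56 with the stricter choice and −1.02 from 10000 UMIs and the endothelial marker list to −0.40 from 10000 UMIs. In thinned cells *Bpnt1* stood at −0.02 on 31 and 5 UMIs. *Adgrl1* had 12 UMIs and 0 UMIs there, and its value of 0.61 was set by raising the 0 to 3, so it is no change of direction. Not all of the 44 named genes were 2-fold apart in the main analysis. Of those that were, 5 were no longer so from 10000 UMIs and 12 after thinning. The 5 do not include *Glp1r*, which changed direction. The causes were not tested. The *Cebpa* ΔSftpc AT2 cells held 1075960 UMIs, and at equal CPM 220 of the 240 lower genes were expected to have under 20 UMIs in them.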
